A study of Homo sapiens with 36 samples.

Results

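The genes described here are 9 members of the lipoprotein receptor family and its relatives: VLDLR, LRP8, LRP1, LRP4, LRP5, LRP6, LRP10, LRP12 and SORL1. They were picked by symbol from the 57665 genes of the deposited tables, with earlier results of these data known. All 9 were among the 19043 genes that passed the filter on low counts. RNA was sequenced from U2OS, a human osteosarcoma line, with a stably integrated construct, Dmr-PERK, in which mouse PERK's eIF2alpha kinase domain is joined to DmrB. The ligand AP20187, called dimerizer, brings the fusion proteins together, and the active kinase phosphorylates this translation factor, which starts the integrated stress response. Every group carried the construct. The wild-type (WT) and the ATF4 knockout (KO) cells were each left untreated (NT, 0 h) or given dimerizer, at a single dose (the label gives it no unit), for 2, 4, 8, 16 or 24 h, with 3 wells per group and 36 libraries in all. The labels give neither the edit that removed ATF4 nor whether each genotype is a single clone, so genotype and clone cannot be told apart. The replicates are wells, and the spread behind each p-value is that between wells.

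Receptors of this family reach the cell surface or the endosome as single-pass membrane proteins whose ligand-binding repeats capture lipoproteins, proteases, protease inhibitors or signalling proteins. VLDLR and LRP8 (also called ApoER2) bind apolipoprotein E and reelin, LRP1 clears a wide range of ligands by endocytosis, and LRP5 and LRP6 are co-receptors of Wnt proteins. LRP4 is the agrin receptor at the neuromuscular junction and binds the Wnt inhibitor sclerostin in bone. SORL1 sorts cargo such as the amyloid precursor protein between endosome and Golgi. ATF4 is the transcription factor whose translation increases when eIF2alpha is phosphorylated, and it activates genes of amino acid supply and stress adaptation.

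The promoters of 3 members are shown here as examples of different courses: a gene that moved in opposite directions in the genotypes (VLDLR), one that rose in both (LRP8) and one that fell in both (SORL1). The sequences are RefSeq's (GRCh38.p14), 5′ to 3′ on the gene's strand, and end just before the transcription start that RefSeq gives. SORL1 ends earlier, just before the start in GENCODE 29. VLDLR is the plus strand of chr9:2621537-2621786, LRP8 the minus strand of chr1:53328071-53328320 and SORL1 the plus strand of chr11:121452064-121452202. The last line is a stretch of 30 bases from 1 of the 2 promoters listed for ASNS, the asparagine synthetase gene, on the minus strand of chr7:97872458-97872487, shown because it holds the motif that ATF4 binds with C/EBP proteins. Capitals mark matches, on either strand, to the motifs named below, leaving out a match that overlaps an earlier one of the same motif.
VLDLR: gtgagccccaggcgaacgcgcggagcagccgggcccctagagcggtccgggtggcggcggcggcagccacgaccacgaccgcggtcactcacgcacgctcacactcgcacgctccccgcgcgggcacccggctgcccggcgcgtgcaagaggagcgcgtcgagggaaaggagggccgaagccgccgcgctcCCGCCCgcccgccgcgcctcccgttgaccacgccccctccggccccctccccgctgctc
LRP8: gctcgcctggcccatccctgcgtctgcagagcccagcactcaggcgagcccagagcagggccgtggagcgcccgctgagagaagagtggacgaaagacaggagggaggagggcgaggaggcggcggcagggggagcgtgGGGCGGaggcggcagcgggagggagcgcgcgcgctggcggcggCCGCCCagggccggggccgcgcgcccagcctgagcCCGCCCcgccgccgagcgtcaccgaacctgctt
SORL1: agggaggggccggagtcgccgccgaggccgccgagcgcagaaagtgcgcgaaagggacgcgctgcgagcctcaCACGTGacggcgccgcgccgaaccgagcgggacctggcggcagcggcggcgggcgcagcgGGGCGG
ASNS: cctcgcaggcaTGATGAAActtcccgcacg

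Of the 9 members, 6 had an entry in the promoter table (VLDLR, LRP8, LRP1, LRP5, LRP10 and SORL1). The 250 bases before the start were searched on both strands for 4 motifs, with overlap between different motifs allowed. A match that overlaps an earlier match of the same motif was not counted. The ATF4-C/EBP response element (TGATGNAA) was in 3.14% of the 35116 promoters of the table and in none of the 6 member windows, while 1 of the 2 ASNS promoters holds it, from 68 bases before the start. The other ASNS promoter and all those listed for the stress response genes TRIB3 (3), DDIT3 (2) and ATF4 (2) had no match. The sterol response element (TCACNCCAC) was in 0.883% of all promoters and in none of the 6. The palindromic E-box (CACGTG) was in 6.34% of all promoters and, among the 6, in SORL1, from 177 bases before the start. A GC box (GGGCGG) was in 42.6% of all promoters and in 5 of the 6. Counted without overlap, VLDLR and LRP1 hold 1, SORL1 holds 2, LRP8 and LRP5 hold 3 each, and LRP10 holds none. In VLDLR a further match overlaps the counted one and is in capitals only where they overlap. The GC content of the 250 bases was 78.8% for VLDLR, 77.2% for LRP8 and 80.4% for SORL1, against a median of 58% over all promoters. A match is a run of letters and not a measured binding site, and its absence from this window says nothing about ATF4 at the gene.

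Library totals ran from 8608783 to 16265056 counts, and a member's count in a library from 41 to 10942. ATF4's own RNA was present in both genotypes, at 310 to 323 CPM (counts scaled to the library's TMM-scaled size) in untreated WT and 259 to 274 in untreated KO (-0.26 ± 0.03 in log2, edgeR adjusted p 6.2e-08). At 24 h it was at 690 to 713 and 714 to 760, so that KO was below WT before treatment and above it at 24 h, without overlap at either time. Without the position of the edit, the ATF4 count is no check of the knockout. The ATF4 target ASNS stood at 428 to 431 CPM in WT and 14.1 to 15.8 in KO at 24 h. Of 7 osteoblast and mesenchymal markers, VIM, SPARC and COL1A1 were abundant, and COL1A2 and SP7 were low (means of 0.466 and 0.0169 CPM). The 8 markers of leukocytes, epithelium and endothelium summed to 4.00 to 18.9 CPM in any library, with CD3E at or near 0. Of the 6 tested genes of the mesenchymal list, 4 were lower and 1 higher at 24 h in each genotype (65.4% of all genes called in each). ALPL rose in WT, with counts of 90, 62 and 105 untreated and 144, 141 and 112 at 24 h. The list's sum, mostly of VIM, SPARC and COL1A1, moved with treatment. It was 5561 to 5629 CPM in untreated WT and 2340 to 2392 at 24 h. In KO it was 5851 to 5975 untreated and 3276 to 3326 at 24 h. The part of that shift in the member results was not tested, and in bulk RNA fewer cells of a type and less RNA per cell cannot be told apart.

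On the length-scaled TPM deposited by the authors, the scale on which genes can be set side by side, the untreated WT cells carried most RNA of LRP1 (64.9 to 75.1 TPM over the 3 libraries) and LRP10 (64.5 to 69.1). LRP6 followed at 56.9 to 69.6 TPM and overlapped with both. LRP12, a receptor of the family without a well-defined ligand, was at 42.5 to 56.4 TPM. LRP8 was at 16.0 to 24.4 TPM and overlapped with LRP5 at 14.2 to 16.9. VLDLR stood seventh of the 9, at 6.65 to 11.05 TPM, and overlapped with SORL1 at 6.25 to 7.91. LRP4 was lowest, at 2.05 to 3.75 TPM. The 9 together summed to 279 to 322 TPM in untreated WT, of which LRP1 made up 23.4% and VLDLR 2.82% (means of 3 libraries).

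**Figure D1:**
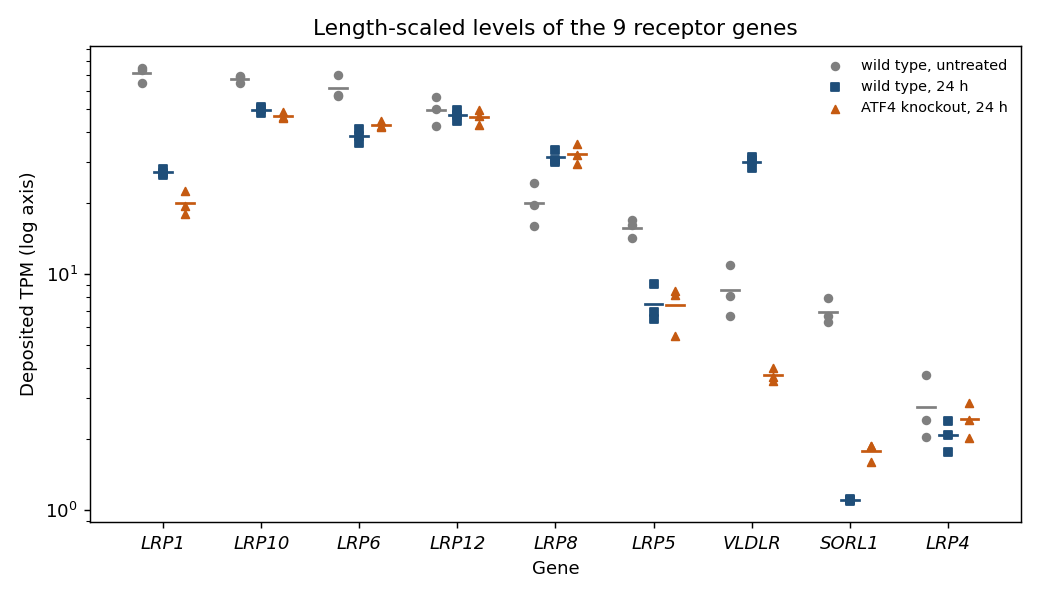
Deposited TPM (log axis) of the 9 genes, ordered by their mean in untreated wild type; each symbol is a library and each bar the mean of 3. VLDLR goes from a mean of 8.59 TPM in untreated wild type to 30.0 at 24 h, level with LRP8, and is at 3.74 in the knockout at 24 h.

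After 24 h of dimerizer this order had changed in WT. LRP10 (48.0 to 51.1 TPM) and LRP12 (44.4 to 49.8) overlapped at the top, and LRP6 (35.9 to 41.2) followed without overlap. LRP8 (29.9 to 33.6) and VLDLR (28.1 to 31.3) overlapped next to each other, and LRP1 came after them at 26.3 to 28.0. SORL1 was now lowest, at 1.10 to 1.125 TPM. VLDLR made up 12.8% of the summed TPM of the 9 and LRP1 11.5%, and the sum itself was 228 to 242 TPM. In KO cells at 24 h the sum was 198 to 212 TPM, with VLDLR at 1.83% and LRP1 at 9.78%. The TPM are used here for levels only, and all changes below are from the counts.

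**Figure D2:**
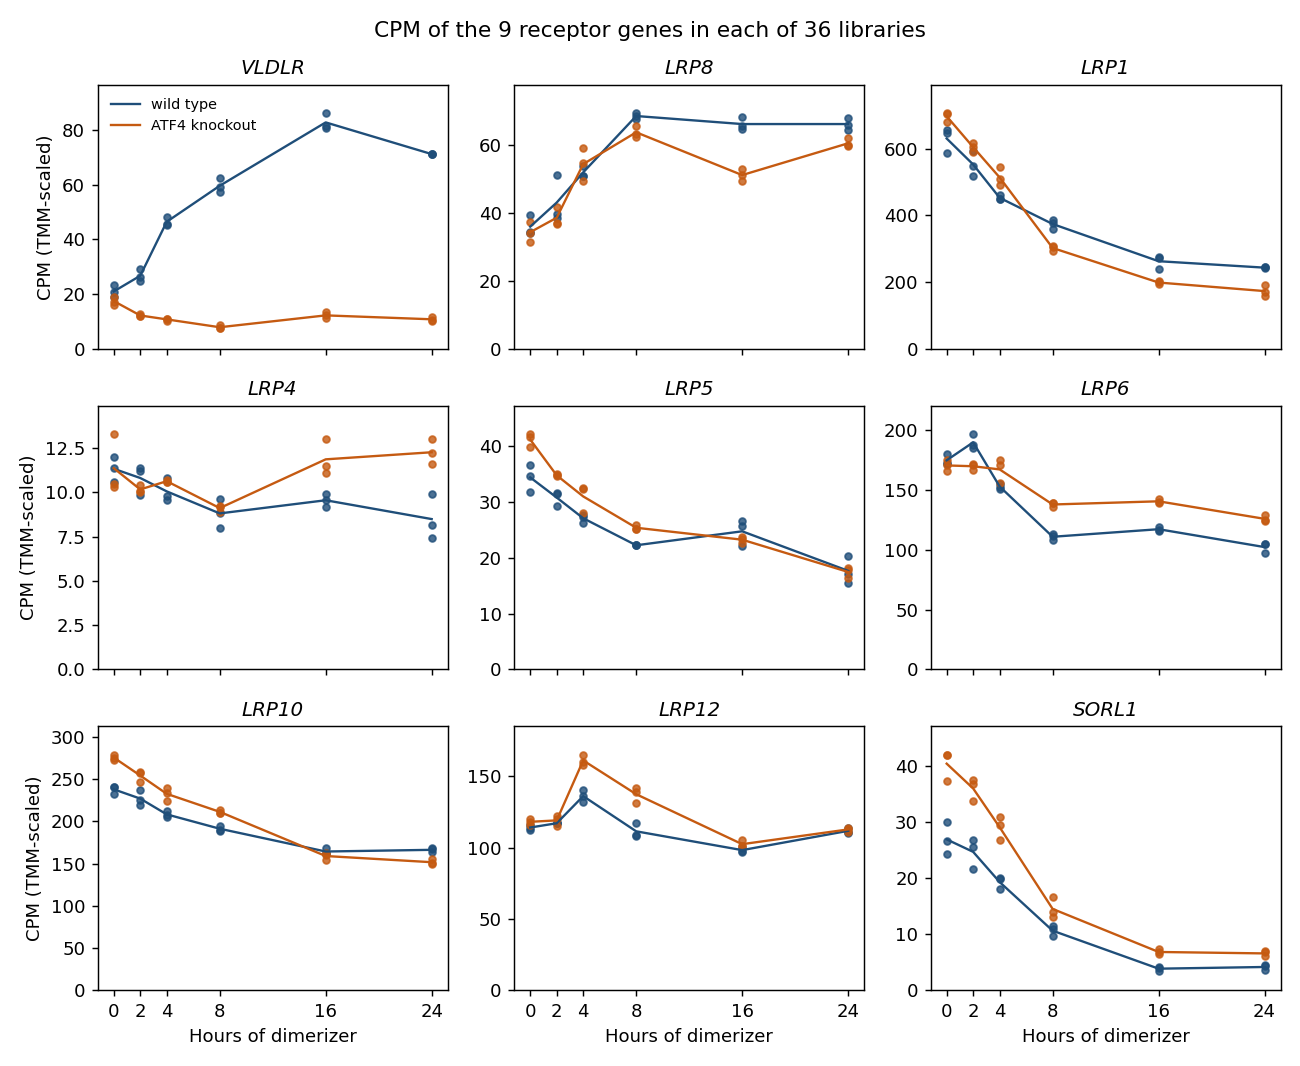
CPM (linear axis from 0, own scale in each panel) against hours of dimerizer; points are libraries and lines join the means of 3 wild-type (blue) or ATF4 knockout (orange) wells. VLDLR separates the genotypes from 2 h on, LRP8 rises in both, and SORL1 and LRP1 fall in both.

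VLDLR rose in WT and fell in KO at every time, and it is the member whose response differed most between the genotypes. The gene spans 2621834 to 2660053 on the plus strand of chromosome 9 (GRCh38, GENCODE 29), in 19 merged exon blocks, and codes for the very-low-density lipoprotein receptor. In untreated WT the 3 libraries gave 18.8, 20.7 and 23.4 CPM. With dimerizer they gave 29.1, 26.2 and 24.8 at 2 h, 45.4, 48.2 and 45.8 after 4 h, and 59.1, 62.4 and 57.4 at 8 h. They reached 81.4, 86.2 and 80.9 CPM at 16 h and were at 71.2, 71.1 and 71.4 at 24 h. Every treated WT library was above every untreated one, and the 16 h libraries were all above those of 24 h.

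The KO libraries moved the other way. Untreated, they gave 16.1, 19.1 and 17.1 CPM, and the highest of them overlapped with the lowest of untreated WT. They gave 11.9, 12.7 and 11.9 at 2 h, 10.9, 10.3 and 11.02 after 4 h, and 8.50, 7.47 and 7.61 at 8 h, the lowest of all 12 groups. At 16 h they were at 11.1, 13.3 and 12.2 and at 24 h at 11.6, 10.5 and 10.2. Every treated KO library was below every untreated one. The KO mean was 4.33-fold below that of WT at 4 h, 7.58-fold at 8 h and 6.62-fold at 24 h, with no overlap at any treated time.

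In the edgeR fit, the WT change of VLDLR was 0.34 ± 0.07 (log2 ± SE, n = 3 per group) at 2 h, with an adjusted p of 0.00029. It was 1.15 at 4 h, 1.51 at 8 h, 1.98 ± 0.06 at 16 h and 1.77 ± 0.06 at 24 h, where the edgeR adjusted p was 1.9e-26. The KO change of VLDLR was -0.51 at 2 h, -0.70 at 4 h, -1.15 ± 0.10 at 8 h, -0.54 at 16 h and -0.71 ± 0.09 at 24 h, all called, with edgeR adjusted p values of at most 4.3e-05. Between the genotypes the responses of VLDLR differed (KO change minus WT change): the value was already -0.85 ± 0.11 at 2 h with an edgeR adjusted p of 8.8e-06. At that time 0.299% of all tested genes were called for such a difference, and VLDLR was the 1 member among them. The difference in VLDLR was -1.85 at 4 h, -2.66 ± 0.12 at 8 h, -2.52 at 16 h and -2.47 ± 0.11 at 24 h. All treated times share the untreated wells of their genotype as control.

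Before treatment VLDLR was a little lower in KO, by -0.26 ± 0.08 in log2 with an edgeR adjusted p of 0.011. That call rests on single wells: it was lost without the third untreated WT well (-0.17, adjusted p 0.18) and without the first (-0.22) or the third (-0.24) untreated KO well.

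VLDLR-AS1, an antisense RNA gene that shares 738 exonic bases with VLDLR on the opposite strand, was examined after its values were seen. It gave 2.63, 3.55 and 2.39 CPM in untreated WT and 6.43, 7.14 and 6.91 at 16 h, and 1.56, 2.14 and 2.59 in untreated KO and 0.810, 0.469 and 0.457 at 16 h. Its difference of responses was not called at 2 h (-0.60, adjusted p 0.66) or 4 h. It was -2.57 ± 0.32 at 8 h, then -3.06 ± 0.34 and -1.88 ± 0.31 in edgeR, all called. The kit marked strand but no source used here gives the strand setting of the quantification, so reads from the shared bases cannot be told apart.

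**Figure D3:**
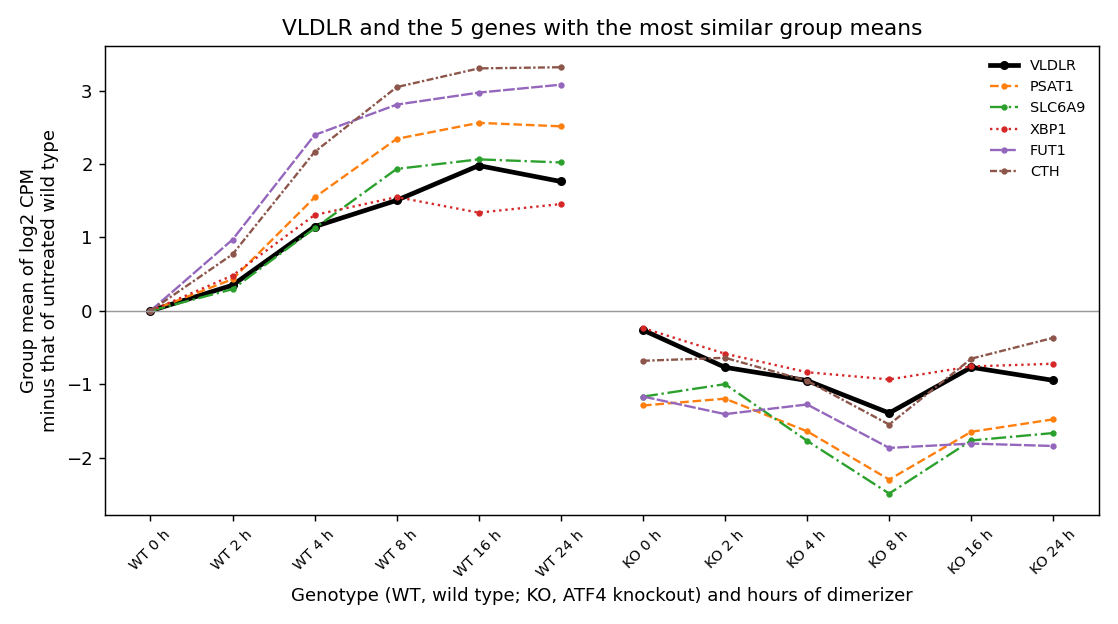
Group means of log2 CPM (prior count 2) of VLDLR (thick black) and of the 5 genes with the highest Pearson r with it over the 12 group means, each minus its untreated wild-type value. All 6 lie above 0 in treated wild type and below 0 in every knockout group.

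Among 12159 genes whose mean reached 5 CPM, the group means most like those of VLDLR over the 12 groups belonged to PSAT1 (r = 0.989), SLC6A9 (0.986), XBP1 (0.983), FUT1 (0.981) and CTH (0.981). The 12 points share controls and a cell line, so these r are descriptions. PSAT1 codes for the aminotransferase of serine synthesis, SLC6A9 for a glycine transporter, XBP1 for a transcription factor of the unfolded protein response, FUT1 for a fucosyltransferase and CTH for cystathionine gamma-lyase. PSAT1 went from a mean of 30.3 CPM in untreated WT to 173 at 24 h, and from 12.3 to 10.75 in KO. XBP1 went from 108 to 298 CPM in WT and from 92.3 to 65.8 in KO. SLC6A9 went from 21.8 to 89.2 CPM in WT and from 9.68 to 6.78 in KO. FUT1 went from 2.85 to 25.3 CPM in WT and was low in KO, at 1.17 untreated and 0.67 at 24 h. CTH went from 10.35 to 104 CPM in WT and, unlike VLDLR, was higher at 24 h in KO (6.36 to 7.95). TGATGNAA was in 1 of the 2 promoter windows listed for FUT1, from 119 bases before the start, and in none of those of PSAT1, SLC6A9, CTH and XBP1. The untreated means were 12.3 CPM in KO against 30.3 in WT for PSAT1 and 9.68 against 21.8 for SLC6A9, beside 17.4 against 20.95 for VLDLR.

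LRP8, the closest relative of VLDLR among the members and likewise a receptor of reelin, rose in both genotypes. It lies at 53242364 to 53328070 on the minus strand of chromosome 1. Untreated, it gave 39.5, 34.4 and 34.0 CPM in WT and 37.4, 34.2 and 31.4 in KO. At 8 h it gave 69.4, 67.8 and 68.5 in WT and 65.6, 63.2 and 62.5 in KO, and at 24 h 66.0, 64.5 and 68.1 in WT and 62.1, 59.6 and 59.9 in KO. From 4 h on all treated libraries of LRP8 were above all untreated ones of their genotype. The change at 24 h was 0.87 ± 0.07 in WT (edgeR adjusted p 3.8e-14) and 0.83 ± 0.07 in KO (3.0e-13), and their difference was -0.04 ± 0.10, not called. At 16 h KO was at 53.1, 49.3 and 51.1 CPM against 64.8, 65.5 and 68.3 in WT, and the difference of the LRP8 responses was -0.28 ± 0.11 (edgeR adjusted p 0.044). That call was lost when any 1 of 8 wells was left out: the second or the third untreated WT well, the first or the second untreated KO well, and the second or the third 16 h well of either genotype, with values of -0.23 to -0.29. It was also lost in the limma fits on TPM (-0.18 to -0.20). The LRP8 change of 0.26 at 2 h in WT rested on the third treated well (51.1 CPM against 38.4 and 39.7): without it the value was 0.12, and without the third untreated well 0.22, neither called.

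Counted over the 9, WT cells had 3 members higher and 1 lower at 2 h, where 22.6% of all tested genes were called. There were 3 higher and 5 lower at 4 h (44.7% of all genes called), 2 higher and 6 lower at 8 h (59.3%), 2 higher and 7 lower at 16 h (66.5%) and 2 higher and 6 lower at 24 h (65.4%). In KO cells no member was higher and 4 were lower at 2 h (18.3% of all genes called), while 2 were higher and 5 lower at 4 h (42.4%) and 2 higher and 7 lower at 8 h (61.9%). There was 1 higher beside 7 lower at 16 h (65.7%) and 1 beside 6 at 24 h (65.4%). The median change of the 9 at 24 h was -0.52 in WT and -0.71 in KO, beside medians over all genes of -0.02 and -0.03. The count of lower members at 2 h in WT was 3 without the first untreated well and 2 without the first treated well. With about 2 in 3 of all genes called at the late times, a member's call is common, and its size and direction carry the description.

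**Figure D4:**
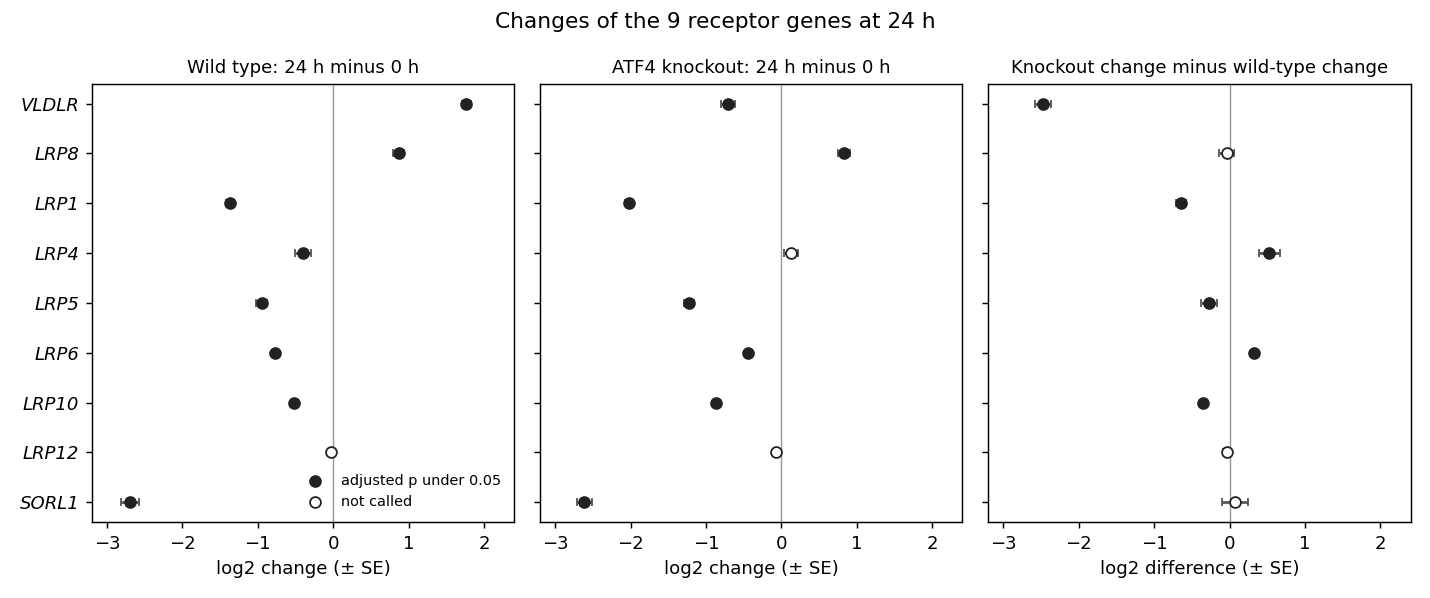
Log2 change from 0 to 24 h in wild type (left) and ATF4 knockout (middle), and the knockout value minus the wild-type value (right), with SE; filled points have an edgeR adjusted p under 0.05. VLDLR lies at 1.77, -0.71 and -2.47, and SORL1 at -2.69, -2.62 and 0.08.

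SORL1, the sorting receptor, fell furthest of the 9, in both genotypes. Its gene spans 121452203 to 121633693 on the plus strand of chromosome 11. In WT it went from 24.3, 26.6 and 30.0 CPM untreated through 18.1, 20.0 and 19.9 at 4 h and 9.63, 10.9 and 11.4 at 8 h to 4.12, 3.49 and 3.95 at 16 h and 3.62, 4.50 and 4.35 at 24 h. In KO it went from 37.4, 42.0 and 42.1 CPM through 26.9, 29.5 and 31.0 at 4 h and 13.9, 16.6 and 13.1 at 8 h to 6.41, 6.80 and 7.31 at 16 h and 6.05, 6.94 and 6.76 at 24 h. The KO libraries of SORL1 were above the WT ones at each of these times, treated or not.

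The mean of SORL1 at 24 h was 6.49-fold below untreated in WT and 6.15-fold below in KO. The change was -2.69 ± 0.12 in WT (edgeR adjusted p 4.7e-23) and -2.62 ± 0.10 in KO (2.3e-25). For SORL1 the response difference was not called at any time, and was 0.08 ± 0.17 at 24 h. What separated the genotypes was the level: untreated SORL1 was higher in KO by 0.59 ± 0.08 (edgeR adjusted p 6.0e-08). On TPM the same difference was 0.27 to 0.33 and not called, but it rests on untreated KO columns that matched their counts poorly (see processing).

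LRP1, the endocytic receptor with the highest mean TPM of the 9 in untreated WT, also fell in both genotypes, and further in KO. Its gene spans 57128493 to 57213351 on the plus strand of chromosome 12, in 89 exon blocks, and shares 59 exonic bases with STAT6 on the opposite strand. Untreated, it gave 587, 657 and 649 CPM in WT and 681, 705 and 707 in KO. At 8 h it gave 387, 376 and 360 in WT and 306, 308 and 293 in KO, and at 24 h 245, 241 and 244 in WT and 190, 171 and 158 in KO. KO libraries of LRP1 were thus all above WT before treatment and all below WT from 8 h on.

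The LRP1 change at 24 h was -1.37 ± 0.05 in WT and -2.02 ± 0.05 in KO, 2.59-fold and 4.03-fold below untreated. In LRP1 the difference of the responses was near 0 at 2 and 4 h (-0.02 and 0.04, not called) and then -0.45 ± 0.07 at 8 h, -0.56 at 16 h and -0.65 ± 0.07 at 24 h (edgeR adjusted p 5.8e-10). The untreated difference in LRP1 was 0.15 ± 0.05 (edgeR adjusted p 0.014), and it was not called without the first untreated WT well (0.10) or the third untreated KO well (0.13).

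LRP5 and LRP6, the Wnt co-receptors, both fell, but differed in how the genotypes compared. LRP5 lies at 68312609 to 68449275 on the plus strand of chromosome 11 and LRP6 at 12116025 to 12267012 on the minus strand of chromosome 12. LRP5 gave 31.8, 36.6 and 34.6 CPM in untreated WT and 20.3, 17.1 and 15.5 at 24 h, and 42.1, 41.5 and 39.7 in untreated KO and 16.4, 17.7 and 18.2 at 24 h. The genotypes did not overlap in LRP5 before treatment and overlapped at 24 h. The change was -0.95 ± 0.07 in WT and -1.22 ± 0.07 in KO, and the untreated KO level was higher by 0.26 ± 0.06 (edgeR adjusted p 0.0016). The difference of the LRP5 responses was -0.35 ± 0.10 at 16 h (edgeR adjusted p 0.005) and -0.28 ± 0.10 at 24 h (0.041). On TPM the 16 h value was -0.09 to -0.16 and not called. The 24 h call was lost when the first WT well, untreated or treated, or the first or second KO well, untreated or treated, was left out, with the smallest value (-0.17) without the first treated WT well.

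LRP6 gave 173, 180 and 172 CPM in untreated WT and rose to 188, 197 and 185 at 2 h, by 0.12 ± 0.03 (edgeR adjusted p 0.006; 0.09 and not called without the second treated well). It then fell to 112, 113 and 108 at 8 h and 105, 105 and 97.1 at 24 h. In KO it gave 166, 175 and 171 untreated, 171, 167 and 172 at 2 h, 139, 139 and 136 after 8 h and 129, 125 and 124 at 24 h. From 8 h on every KO library of LRP6 was above every WT one. The LRP6 change at 24 h was -0.77 ± 0.04 in WT and -0.44 ± 0.03 in KO. The difference of the LRP6 responses was 0.35 ± 0.05 at 8 h, 0.30 at 16 h and 0.33 ± 0.05 at 24 h (edgeR adjusted p 1.1e-06), opposite in sign to that of LRP5. On TPM it was 0.37 to 0.39 at 8 h and 0.34 to 0.36 at 16 h, not called. At 24 h it was 0.19 to 0.22 on TPM, not called either.

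LRP10, a receptor that cycles between the Golgi, endosomes and the surface, spans 22871613 to 22881580 on the plus strand of chromosome 14, in 7 exon blocks. It gave 232, 241 and 241 CPM in untreated WT and 164, 168 and 167 at 24 h, and 275, 279 and 273 in untreated KO and 155, 151 and 149 at 24 h. Like LRP1, it was above WT in KO before treatment, by 0.21 ± 0.03 (edgeR adjusted p 2.7e-07), and below at 24 h, with no overlap at either time. The LRP10 change at 24 h was -0.52 ± 0.03 in WT and -0.86 ± 0.03 in KO. For LRP10 the response difference was -0.26 ± 0.04 at 16 h and -0.35 ± 0.04 at 24 h (edgeR adjusted p 2.6e-08).

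LRP4 had the smallest range of the 9 on CPM, with a highest group mean 1.45-fold above the lowest. Its gene spans 46856868 to 46918642 on the minus strand of chromosome 11 and shares 515 exonic bases with LRP4-AS1, an antisense gene with a mean of 0.950 CPM. It gave 10.6, 12.02 and 11.4 CPM in untreated WT and 7.42, 9.90 and 8.16 at 24 h, and 13.3, 10.3 and 10.5 in untreated KO and 12.2, 11.6 and 13.0 at 24 h. The WT change of LRP4 was -0.40 ± 0.10 at 24 h (edgeR adjusted p 0.00084), while the KO value was 0.13 ± 0.10, not called. The difference was 0.53 ± 0.14 (edgeR adjusted p 0.0032), and on TPM it was -0.01 and not called. Of 11 neighbouring pairs in the order of the 12 LRP4 group means, 1 did not overlap.

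LRP12, on chromosome 8, changed early and returned. It gave 112, 116 and 114 CPM in untreated WT, 136, 132 and 140 at 4 h, 100.2, 96.7 and 97.8 after 16 h and 110, 111 and 114 at 24 h. In KO it gave 120, 116 and 118 untreated, 158, 165 and 160 at 4 h, 131, 139 and 142 after 8 h, 101, 101 and 105 at 16 h and 111, 113 and 114 after 24 h. The LRP12 change at 4 h was 0.26 ± 0.03 in WT and 0.44 ± 0.03 in KO, and at 16 h -0.21 in both, all called. At 24 h it was -0.03 and -0.07, not called. For LRP12 the response difference was 0.19 ± 0.05 at 4 h (edgeR adjusted p 0.017) and 0.25 ± 0.05 at 8 h (0.00021). On TPM the 8 h value was 0.20 to 0.34 and not called. The 4 h call was lost when the second untreated well of either genotype, the first or the second WT well of 4 h, or the second or the third KO well of 4 h was left out, with values down to 0.15. It was also lost with no filter on low counts (0.20, adjusted p 0.093), with just the groups compared (0.18, adjusted p 0.055) and in the limma fits on TPM (0.22 to 0.35).

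**Figure D5:**
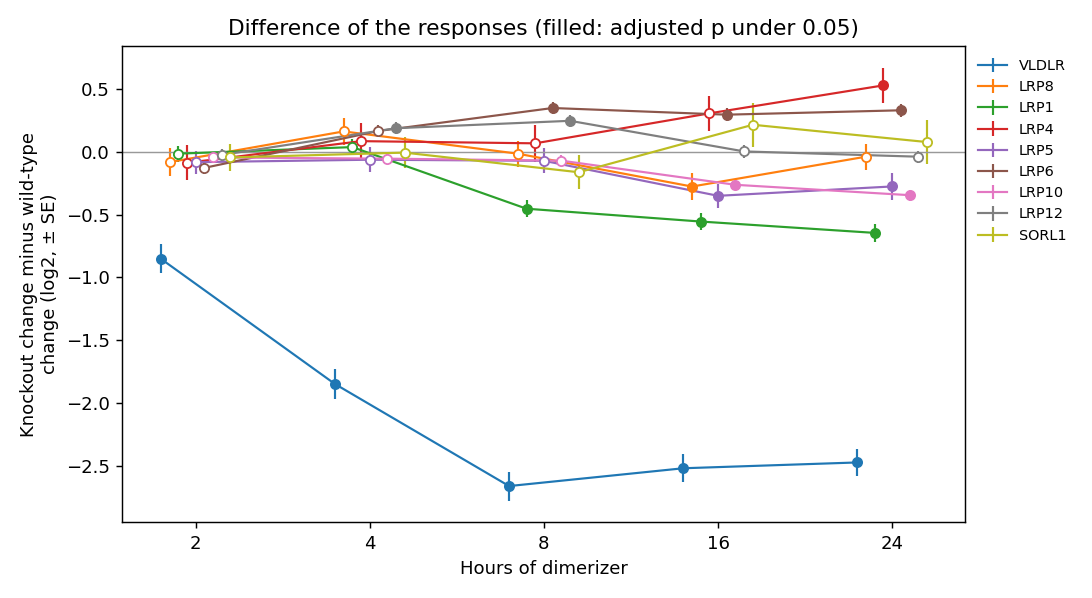
Knockout change minus wild-type change (log2, SE) of the 9 genes against hours of dimerizer, shown at equal spacing; filled points have an edgeR adjusted p under 0.05. VLDLR is at -0.85 for 2 h and -2.66 for 8 h, and the other 8 stay between -0.65 and 0.53.

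The difference of the responses was called for 1 member, lower, at 2 h, for 1 higher and 1 lower at 4 h (3.28% of all genes called), and for 2 and 2 at 8 h (18.3%). It was called for 1 higher and 5 lower at 16 h (27.7%) and for 2 higher and 4 lower at 24 h (29.8%). Without the first untreated KO well, 2 were higher at 16 h, the added one being LRP4 (0.40). At 24 h the 2 were LRP4 and LRP6 and the 4 were VLDLR, LRP1, LRP5 and LRP10. Before treatment KO differed from WT in 5 of the 9, with LRP1, LRP5, LRP10 and SORL1 higher and VLDLR lower, where 23.5% of all genes were called.

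Of the other family members looked at, LRP3 and LRP11 passed the filter, and LRP2 and LRP1B did not. LRP3 and LRP11 were not called at 24 h in either genotype.

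Of 14 ligands of the receptors, 13 were tested, and the 14th, RELN, which codes for reelin, did not pass the filter. All 13 were lower at 24 h in WT, with a median of -1.16, and 12 of the 13 in KO, with a median of -1.26. Over all genes 32.4% were lower in WT and 33.0% in KO, with medians of -0.02 and -0.03. THBS1, which codes for thrombospondin-1, a ligand of VLDLR, LRP8 and LRP1, fell from 1666 to 1680 CPM in untreated WT to 150 to 164 at 24 h (-3.41 ± 0.05) and from 1277 to 1393 to 177 to 192 in KO. PLAT, the tissue plasminogen activator, fell by 2.30 ± 0.06 on the log2 scale in WT, and its difference between the genotypes was 0.44 ± 0.08. These calls had edgeR adjusted p values of at most 3.6e-05. Of the 13, 3 had a higher and 1 a lower response in KO than in WT, a share near the 29.8% of all genes called for that difference.

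The list of chaperones, adaptors and turnover genes had 12 of 14 members tested, of which 4 were higher and 4 lower at 24 h in WT and 3 higher and 7 lower in KO, where 65.4% of all genes were called in each genotype. The difference of responses was called in 7, with 2 higher and 5 lower, beside 29.8% of all genes. ADAM17, a protease that sheds membrane proteins, went from 45.9 to 49.9 CPM in untreated WT to 84.6 to 88.3 at 24 h, and from 44.9 to 50.1 to 33.6 to 33.9 in KO, so that like VLDLR it moved in opposite directions (0.84 ± 0.04 and -0.49 ± 0.05, difference -1.33 ± 0.06). DAB2, an endocytic adaptor of these receptors, was at 69.3 to 74.3 CPM in untreated WT and 80.1 to 84.2 at 24 h, and at 67.2 to 73.3 and 40.8 to 41.5 in KO (difference -0.98 ± 0.07). ADAM10, another sheddase, had a difference of -0.33 ± 0.05. FURIN, the protease that cleaves the LRP1 precursor, fell in WT by 0.52 ± 0.04 on the log2 scale, and GULP1, an adaptor that binds LRP1, rose by 0.88 ± 0.12. Each of these calls had an edgeR adjusted p of at most 2.3e-07. DAB1 did not pass the filter.

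Of 28 Wnt receptor partners, 23 were tested, with 6 higher and 12 lower at 24 h in WT and 5 higher and 14 lower in KO (65.4% of all genes called in each). KREMEN2, a receptor that works with DKK proteins against LRP6, fell from 72.1 to 78.5 CPM to 6.47 to 7.42 in WT and from 64.2 to 69.1 to 19.5 to 22.7 in KO, with a difference of 1.72 ± 0.16. FZD1, a Wnt receptor, fell by 2.34 ± 0.08 on the log2 scale in WT, and DKK3, a secreted relative of the DKK inhibitors, by 1.52 ± 0.04. DVL1, a scaffold downstream of Frizzled, rose in both genotypes, by 0.60 ± 0.04 in WT and 1.39 ± 0.04 in KO (difference 0.79 ± 0.06). FZD2, another Wnt receptor, had a difference of 0.98 ± 0.13 (edgeR adjusted p 3.9e-08). The difference was called in 10 of the 23, with 7 higher and 3 lower, beside 29.8% of all genes.

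Of 12 partners and relatives of SORL1, 11 were tested, with 4 higher and 5 lower at 24 h in WT and 4 higher and 3 lower in KO. Over all genes 65.4% were called in each genotype, which is near the KO share of this list and below its WT share. SORT1, the relative called sortilin, fell with SORL1 in both genotypes, by 1.54 ± 0.05 on the log2 scale in WT and by 1.58 ± 0.05 in KO. GGA1, a trafficking adaptor, rose by 0.30 ± 0.04 and VPS26A, a retromer subunit, by 0.22 ± 0.04 in WT. The VPS26A difference was -0.21 ± 0.05 and that of VPS26B 0.29 ± 0.09 (edgeR adjusted p 0.0012 and 0.0088). SORCS1, another relative of SORL1, was at 0.394 to 0.562 CPM in untreated WT and 3.23 to 4.68 in untreated KO (2.88 ± 0.30), and at 0.769 to 1.52 in KO at 24 h.

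The stress response genes TRIB3, ASNS, DDIT3 and ATF4 give the scale of the response. TRIB3, a pseudokinase that ATF4 induces, rose by 3.99 ± 0.05 at 24 h in WT and 0.89 ± 0.07 in KO, ASNS changed by 2.80 ± 0.04 and -0.22 ± 0.09, and DDIT3, which codes for CHOP, by 1.61 ± 0.07 and 0.25 ± 0.09. Their differences of -3.09, -3.02 and -1.36 stand beside the -2.47 of VLDLR. ATF4 RNA itself rose by 1.14 and 1.46, with a difference of 0.31 ± 0.04 in the other direction.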

How the data were processed

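RNA from 36 wells was made into directional libraries and sequenced, per the labels. Reads were checked with FastQC 0.11.5 and quantified with Salmon 0.9.1 on GRCh38, per the submitters' processing notes. No source used here gives the annotation release or the strand setting. Per gene, the authors deposited expected counts and, in a second table, TPM. The deposited TPM have a floor of 0.102. The third untreated KO TPM column correlated with its count column at r = 0.498, and the others at 0.913 or more (10522 genes averaging 10 CPM or more). Of the 36 count columns, 33 correlated best with their own TPM column. Each untreated KO count column correlated best with the TPM column of another untreated KO well. TPM served for levels and as an alternative, and no untreated KO level is printed from it. Every TPM value of a KO change, of a difference of responses or of KO against WT at 0 h uses untreated KO columns.

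Counts were rounded, filtered by filterByExpr and scaled by TMM. One model with a mean per group took in all 36 libraries (edgeR 4.0.16 in R 4.3.3, quasi-likelihood F-test), and 16 contrasts were tested with Benjamini-Hochberg adjustment over 19043 genes each, called under 0.05. ± is the standard error. The same contrasts were rerun in DESeq2 1.42.0, with RLE scaling, without the filter, on just the groups compared, with a replicate block, with limma 3.58.1 on log2(TPM + 1) or log2(TPM + 0.1), and with each well left out in turn. A TPM fit without the third untreated KO column was added after the data were seen.

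Tested on simulated data for the WT change at 24 h (18450 genes), the fit found 62.9% of the genes shifted by 0.5 log2 units, 77.1% at a shift of 1, and 5 of 18257 unchanged genes. For the difference of responses at 24 h it found fewer shifted genes, 53.6% and 67.7%, and 9 of 18257 unchanged genes. Chi-square per degree of freedom was 1.34 to 2.61 over 36 replicate pairs within groups, so no library was a copy of another in its group. Pairs from different groups were not compared. Scaling by RLE moved no median of all genes by 0.1 or more. The members and lists were chosen with earlier results of these data known. The named genes are the 9 members, up to 3 genes per list with the smallest adjusted p in the WT change and up to 3 in the difference at 24 h, among called genes averaging 1 CPM or more, and the genes of most similar group means. A few listed genes are not reported here, though the list counts include them. LRP8's identifier matched GENCODE 29 without its version.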

Additional observations from a re-analysis of the deposited data

Results flagged for a closer look

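The response to dimerizer differed between the genotypes, by the edgeR interaction test, in 19 of the 45 comparisons of a member at a time. Over all tested genes 0.299% were called at 2 h, 3.28% at 4 h and 18.3% at 8 h. The share was 27.7% at 16 h and 29.8% at 24 h. The 5 times share their untreated wells, so the 45 are not independent. The values are KO change minus WT change in log2. VLDLR differed at all 5 times, by -0.85, -1.85, -2.66, -2.52 and -2.47 at 2, 4, 8, 16 and 24 h. LRP1 differed by -0.45 at 8 h, -0.56 at 16 h and -0.65 at 24 h. LRP10 differed by -0.26 at 16 h and -0.35 at 24 h. LRP5 differed by -0.35 at 16 h and -0.28 at 24 h. LRP8 differed by -0.28 at 16 h. LRP6 differed in the other direction, by 0.35 at 8 h, 0.30 at 16 h and 0.33 at 24 h, as did LRP12 by 0.19 at 4 h and 0.25 at 8 h and LRP4 by 0.53 at 24 h. The LRP12 value at 4 h lost its call without any 1 of 6 wells, with no filter, with just the groups compared and on TPM. On TPM the values above of LRP4, LRP5, LRP6, LRP8 and LRP12 all lost their call. Those of VLDLR, LRP1 and LRP10 kept theirs. Groups hold 3 wells each, too few for an outlier test.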

How the results depend on the processing

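Over 2281 refits of single members and comparisons, 2131 kept their direction and their side of the threshold, 134 lost the call, 11 gained it and 5 changed sign. A change of sign between values that were not called was not counted. All treated VLDLR calls held under every alternative that gave an adjusted p. DESeq2 gave none for 5 members, VLDLR among them, at the 2 h difference. Most losses came with log2(TPM + 1), log2(TPM + 0.1) and log2(TPM + 1) without the third untreated KO column, in that order below, and the cause was not tested. LRP4 at 24 h in WT became -0.26, -0.35 and -0.26, its difference reversed to -0.014 and -0.00843 and was 0.080 in the last, and at 16 h in WT it reversed to 0.013, 0.016 and 0.013. The LRP6 difference at 24 h became 0.21, 0.22 and 0.19, so 0 members had a higher response in KO on TPM. The LRP5 difference at 24 h became -0.25, -0.26 and -0.32, -0.26 with no filter, -0.27 with only the groups of the contrast and -0.29 with DESeq2. KO against WT at 0 h became 0.12, 0.12 and 0.14 for LRP1, 0.27, 0.30 and 0.33 for SORL1, -0.037, -0.039 and -0.11 for VLDLR, and 0.22, 0.23 and 0.29 for LRP5. With RLE scaling the LRP12 change at 24 h in KO was called, at -0.0782.

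With a single well left out, the LRP5 difference at 24 h ranged from -0.37 to -0.17. KO against WT at 0 h ranged from 0.10 to 0.18 for LRP1 and from -0.34 to -0.17 for VLDLR. The KO change at 24 h ranged from 0.066 to 0.24 for LRP4, called without the first untreated KO well, and from -0.096 to -0.050 for LRP12, called without the third treated KO well. The members higher in KO at 24 h numbered 1 to 2. The replicate numbers did not pair the wells: correlations of same-number wells lay between -0.07 and 0.07, and 15 of 36 libraries correlated best with their own number. With the replicate block the LRP6 difference at 4 h became called (0.16, against 0.17 without it), and no other member call changed.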

Other observations

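Across the 12 group means of log2 CPM, 4 of the falling members moved closely together: r was 0.957 between LRP1 and LRP10, 0.951 between LRP10 and SORL1, 0.917 between LRP5 and LRP10 and 0.902 between LRP1 and SORL1. LRP8 ran against them (-0.751 with LRP1 and -0.839 with LRP5), and VLDLR had a positive r with LRP8 alone (0.351), one of -0.07 with LRP1, and -0.281 to -0.575 with the other 6. These r describe 12 points that share a cell line and untreated controls.

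Genes whose group means were most like those of the other members were found in the same way. SORL1 was closest to SDC2 (r = 0.997), which codes for the cell-surface proteoglycan syndecan-2 and went from 94.4 to 9.67 CPM in WT and from 146 to 17.3 in KO between 0 and 24 h, and to DCHS2 (0.996), a protocadherin gene. LRP10 was closest to MBTPS1 (0.992), the site-1 protease that processes SREBP and ATF6, and to SDC3 (0.991), another syndecan gene. LRP1 was closest to CAT (0.992), which codes for catalase, and HSD17B4 (0.990), an enzyme of peroxisomal fatty acid oxidation. CAT went from 45.6 to 22.4 CPM in WT and from 48.8 to 17.95 in KO. LRP6 was closest to ST3GAL2 (0.984) and ARVCF (0.975), LRP5 to ATP10D (0.974) and PCYT2 (0.974), and LRP8 to ALG1 (0.973) and SLC43A3 (0.973). LRP4 was closest to LPCAT4 (0.946) and ENO2 (0.940), and LRP12 to RCE1 (0.948) and ARAP2 (0.930).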
